A study of Homo sapiens with 6 samples.

Results

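The negative limb of the circadian clock was read from the transcripts of 9 genes: the period genes PER1, PER2 and PER3, the cryptochromes CRY1 and CRY2, CIART, the DEC repressors BHLHE40 and BHLHE41, and the kinase gene CSNK1E. They were chosen by gene symbol for their known roles, with earlier results of these data known. They are 9 of the 22354 loci in a table of RNA-seq counts. The RNA came from a line of normal human thyroid cells, HTori-3.1 (spelled Htoris-3.1 in the sample labels), in 3 libraries labelled control and 3 labelled BMAL1 knockout. The comparison asks how transcripts differ after knockout of BMAL1 in these cells. The control libraries are labelled wild type. For the other group, the methods describe single clones of cells that took up Cas9 and a BMAL1 sgRNA from a lentivirus and survived puromycin. The knockout was checked by western blot. How many clones entered the 3 libraries labelled BMAL1 knockout is not given in the sources used here. Etoposide, which breaks DNA by trapping topoisomerase on it, was given to both groups at 2 μM. The treatment field of the labels gives 12 h of exposure, and the protocol gives 24 h. A synchronizing step or a clock time of harvest is not given in the sources used here. Nothing says that the 3 replicates of a group came from separate cultures, so p-values measure the spread between these samples, which may be technical.

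In the clock, CLOCK and BMAL1 bind E-box sequences as a heterodimer and switch on the PER and CRY genes, whose proteins return to the nucleus as a complex and inhibit that same heterodimer. Casein kinase 1 phosphorylates the PER proteins and so times their nuclear entry and degradation, while CIART and the DEC proteins repress the heterodimer or compete for its sites along separate arms. Thyroid cells, like most peripheral cells, carry this loop, and DNA damage and hormonal signals are known to reset it.

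BMAL1 itself (ENSG00000133794.20, chr11:13276652-13387266 of hg38, forward strand) was counted at 304, 326 and 409 reads in control replicates 1, 2 and 3, and at 764, 603 and 860 reads in replicates 1, 2 and 3 of the libraries labelled BMAL1 knockout. In TMM-normalized CPM, which scales reads to a common library size, its level was 11.3, 12.2 and 14.6 in the controls and 17.9, 19.8 and 19.4 in the other group. The targeted transcript was therefore higher in every library labelled BMAL1 knockout than in every control; an edit by Cas9 fixes no direction for the count of a transcript. Its log2 fold change was 0.58 (SE 0.113), with an adjusted p of 0.0204 (quasi-likelihood test of edgeR, adjusted by the Benjamini-Hochberg method over all loci). With 1 library left out, the BMAL1 fold change lay between 0.50 and 0.70 and its adjusted p between 0.0168 and 0.113, under 0.05 only without control replicate 3 and without knockout replicate 1. Counts per gene do not show whether the gene was edited, so the groups are named below by their labels, and each direction given is a direction between labels.

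Total counts were 26893063, 27029060 and 28513703 in the control libraries and reached 43148059, 29860233 and 43563391 in those of the group labelled BMAL1 knockout. Replicates differed by more than counting error: the chi-square of their counts, per degree of freedom, was 5.31 between control replicates 1 and 2 and 7.23 between knockout replicates 2 and 3. Control replicate 3 stood apart from its group at 14.3 and 13, and knockout replicate 1 stood apart at 31.5 and 46.4. These same libraries shared a trend with base composition, measured as the trend in log2 CPM at 58 to 62% exon GC minus that at 40 to 44%. It was -0.16 in control replicate 3 and -0.21 in knockout replicate 1, and 0.13, 0.12, 0.06 and 0.08 in control replicates 1 and 2 and knockout replicates 2 and 3. One such library lies in each group, and the members below span exon GC contents from 41.6% (CRY1) to 61.9% (PER1), so the range over fits with 1 library left out is given for each member, and values with the GC trend removed for some. The first principal component, with 34.3% of the variance, nevertheless separated the groups, with controls at -18.52, -17.60 and -24.95 and the libraries labelled BMAL1 knockout at 20.19, 23.47 and 17.41.

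The label of a thyroid cell was checked against marker genes. Of 10 thyroid genes, 2 averaged over 1 CPM, PAX8 being the most abundant and FOXE1 the other, while NKX2-1 and IYD had 0 reads in all 6 libraries and TG and TSHR averaged 0.213 and 0.0578 CPM. The summed thyroid markers were at 173, 173 and 201 CPM in the controls and 130, 149 and 173 CPM in the libraries labelled BMAL1 knockout. FOXE1 lay below all controls in every library labelled BMAL1 knockout (log2 fold change -0.26, adjusted p 0.139 in edgeR). PAX8 overlapped, with a log2 fold change of -0.28 (adjusted p 0.259), and DUOX1, also tested, had 0.25 (adjusted p 0.796). Of 5 epithelial genes, 3 averaged over 1 CPM, with KRT8 the most abundant and EPCAM and CDH1 at means of 0.253 and 0.267 CPM. The epithelial sum was 2270, 2310 and 2220 CPM in the controls and 1820, 1720 and 1770 CPM in the other group. Of the markers of other cell types, 4 immune genes summed to 19, 19.6 and 17.2 CPM in the controls and 13.8, 11.4 and 12 CPM in the libraries labelled BMAL1 knockout, CD68 leading and CD3E at 0. The 3 endothelial genes, led by VWF, summed to 1.9, 1.57 and 2.07 CPM against 1.19, 1.11 and 1.72 CPM. The 5 fibroblast genes, led by COL1A1 with LUM and DCN at 0, summed to 922, 926 and 789 CPM against 718, 935 and 989 CPM. Epithelial and immune sums thus differed between the groups without overlap. The part of these lists and of the thyroid markers in the results below was not tested. The epithelial sum is carried by KRT8 and KRT18, while KRT19 and EPCAM had log2 fold changes of 0.23 and 1.57 (adjusted p 0.426 and 0.394), CDH1 averaged 0.233 CPM in the controls and 0.3 CPM in the other group, and the median log2 fold change of the list was -0.03. The immune sum separates the groups through PTPRC, at means of 6.40 and 2.36 CPM, while CD68 overlapped. In bulk RNA, fewer cells of a type and less RNA per cell cannot be told apart.

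All 9 repressor genes passed the filter on low counts. PER3 was the one member whose difference passed the test, with a ratio of 0.713 between the libraries labelled BMAL1 knockout and the controls. PER2 lay higher and BHLHE41 lower in every library labelled BMAL1 knockout, without passing the test after adjustment, and the other 6 members overlapped between the groups. At an adjusted p under 0.05, edgeR called 1 of the 9 members, where 2.51% of the 14860 loci tested were called. It called 1 member lower, beside 1.43% of loci, and 0 members higher, beside 1.08%. At an unadjusted p under 0.05 it counted 3 members (16.9% of all loci), 2 of them lower (7.78%) and 1 higher (9.08%). DESeq2 and limma-voom each called 1 member lower and 0 higher, with 4.47% and 1.72% of loci called in either direction. Without knockout replicate 1, edgeR still called PER3 alone, while the share of loci called was 4.21%. This share moved with the processing, from 0.747% without control replicate 2, where edgeR called 0 members (by unadjusted p under 0.05, 2 lower and 0 higher), to 7.74% with the GC trend removed, where it called PER3 alone. Groups without overlap occurred for 3 of the 9 members, beside 23.3% of loci: 2 members were lower (11.5% of loci) and 1 was higher (11.8%). The median log2 fold change of the 9 members was -0.09, beside 0.01 for all loci, and their median size regardless of sign was 0.18, beside 0.12. The members are few, and nothing particular to the list is read from these shares.

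**Figure D1:**
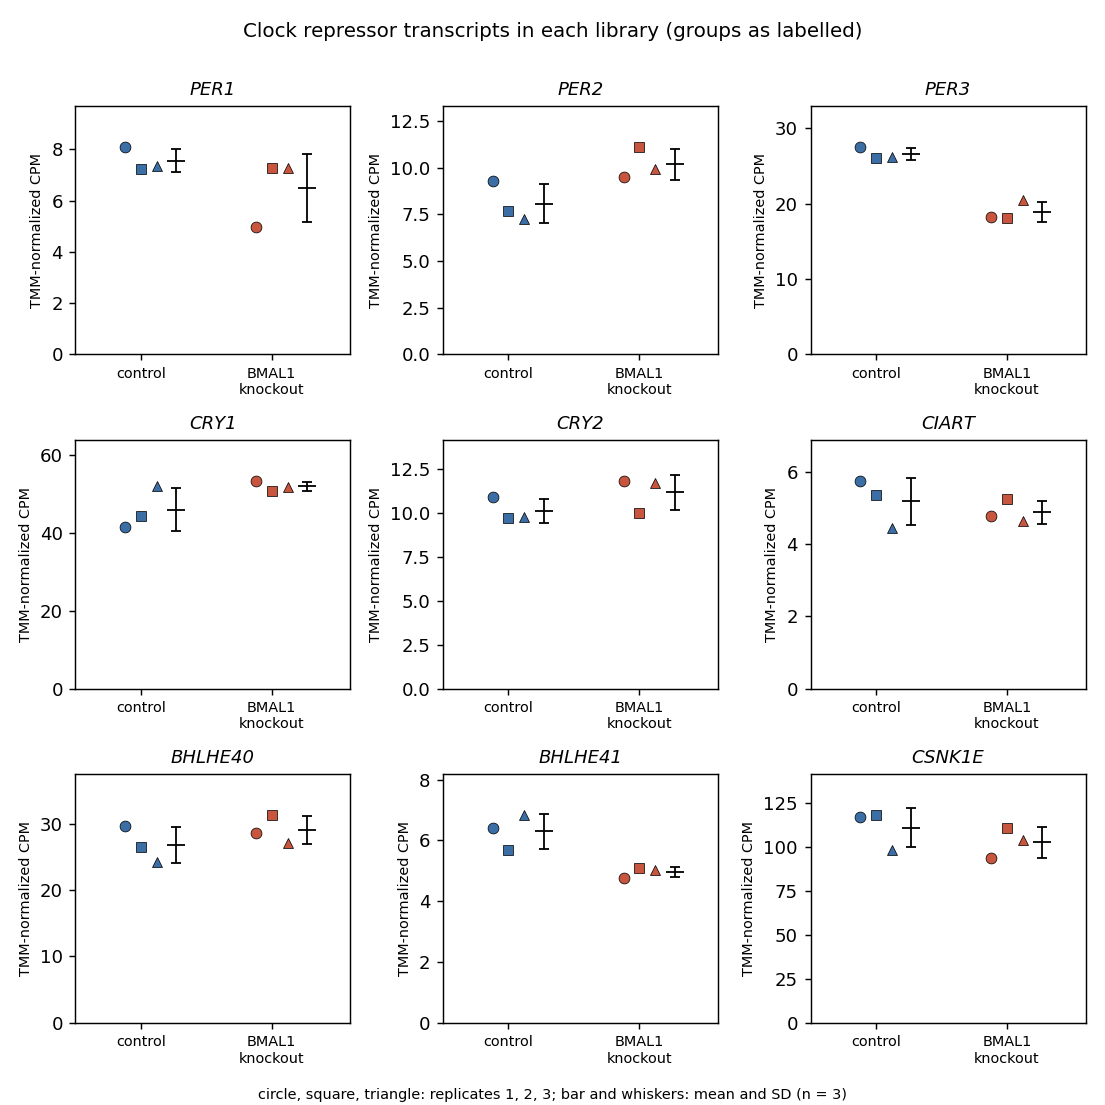
Level of each clock repressor in each library, in TMM-normalized CPM on axes that start at 0, with circles, squares and triangles for replicates 1, 2 and 3 and bars for the mean and SD (n = 3). The libraries labelled BMAL1 knockout lie below all controls for PER3 and BHLHE41 and above them for PER2, and the groups overlap for the other members.

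The PER genes encode the PAS-domain proteins that scaffold the repressor complex. PER1 (ENSG00000179094.16) spans chr17:8140472-8156506 of hg38 and PER2 (ENSG00000132326.13) chr2:238244044-238290102, both on the reverse strand, and PER3 (ENSG00000049246.15) spans chr1:7784291-7845177 on the forward strand. Since the loop acts through E-box, D-box and ROR elements, the windows from 250 bases before to 50 after each RefSeq start (GRCh38.p14) were searched on both strands for the E-box CACGTG, the E-prime box CACGTT, the D-boxes TTATGTAA and TTACGTAA, the ROR element TAGGTCA and the cAMP response element TGACGTCA. All 9 members matched, with 12 windows, since PER3, CRY2 and CSNK1E have 2 starts each. A match describes letters in a window and does not show a factor bound there. The PER windows are printed to set PER3, the called member, beside its paralogs. Capitals mark the motif, each stretch reads 5′ to 3′ on the strand of its gene, and the stretches lie at chr17:8152547-8152602 (reverse), chr2:238288791-238288818 (reverse), chr2:238288606-238288624 (reverse) and chr1:7784089-7784146 (forward), in the order printed.
PER1: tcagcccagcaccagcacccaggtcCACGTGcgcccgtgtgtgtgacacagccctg
PER2, E-prime box: gcgcgcgcggtCACGTTttccactatgt
PER2, D-box: cccgctgcggcTTACGTAA
PER3: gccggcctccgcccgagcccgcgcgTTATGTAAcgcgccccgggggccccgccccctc

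The PER1 window held an E-box whose first base lies at -173, counted from the RefSeq start, in an intron of longer PER1 transcripts and of an overlapping readthrough gene. In the PER2 window, an E-prime box began at -197 and a D-box at -3, both within untranslated exons of other PER2 transcripts in GENCODE. PER3 had no E-box or E-prime box in either window, and a D-box at -177 of the first, outside any annotated gene. The E-box occurred in 7.26% and the E-prime box in 5.34% of all 35116 RefSeq windows, either of them in 12.2%, and 8 of the 12 member windows, 1 for each member except PER3, held one or the other. The D-boxes TTATGTAA and TTACGTAA occurred in 0.886% and 0.125% of windows, and 2 of the 12 member windows, those of PER3 and PER2 above, held either. The cAMP response element occurred in 1.85% of windows and in 0 of the 12 of the members.

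PER3 was measured at 27.5, 26.1 and 26.2 CPM in control replicates 1, 2 and 3 and at 18.2, 18.1 and 20.5 CPM in the libraries labelled BMAL1 knockout. The controls sat close together, and every library labelled BMAL1 knockout lay below all of them. The mean was 26.6 ± 0.803 CPM (SD, n = 3) in the controls and 18.9 ± 1.35 CPM (SD, n = 3) in the other group, and with 3 against 3 libraries the exact permutation test (two-sided) gave p = 0.1, the smallest it allows. On the log2 scale the fold change of PER3 was -0.49 (SE 0.0914, 95% interval -0.69 to -0.29), a ratio of 0.713. Its p of 0.00018 ranked 159 among all loci and became 0.0168 after Benjamini-Hochberg adjustment in edgeR. With 1 library left out, the log2 fold change stayed between -0.55 and -0.46, and the call held in 2 of the 6 fits. The adjusted p (edgeR, Benjamini-Hochberg) was 0.0763, 0.0730 and 0.0596 without control replicate 1, 2 or 3, 0.019 without knockout replicate 1, 0.0867 without knockout replicate 2 and 0.0239 without knockout replicate 3. PER3 also had a small spread within groups, with an SD of 0.0775 in log2 CPM, where the median over the 7534 loci between 4 and 64 CPM was 0.130.

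PER2 went the other way. It was measured at 9.28, 7.67 and 7.28 CPM in the controls and at 9.51, 11.1 and 9.93 CPM in the libraries labelled BMAL1 knockout. All 3 of the latter lay above all controls, although knockout replicate 1 and control replicate 1 were nearly level. Its log2 fold change was 0.33 (SE 0.132, 95% interval 0.04 to 0.62), a ratio of 1.26, with an unadjusted p of 0.0273 and an adjusted p of 0.224 in edgeR's test with Benjamini-Hochberg adjustment. Over 16 alternatives its adjusted p lay between 0.0798, reached with the exon GC trend removed, and 0.508, and its sign was positive in all of them. With 1 library left out, the log2 fold change was 0.27 to 0.44. PER2 rested on 204 to 440 reads a library.

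PER1, a period gene that responds quickly to cAMP and glucocorticoid signals, was measured at 8.09, 7.25 and 7.36 CPM in the controls and at 4.97, 7.27 and 7.29 CPM in the libraries labelled BMAL1 knockout. The low value belonged to knockout replicate 1, which stood apart in other measures too, and the other libraries labelled BMAL1 knockout lay within the range of the controls. The log2 fold change of PER1 was -0.22 (SE 0.162, 95% interval -0.57 to 0.13; adjusted p 0.532 in edgeR with Benjamini-Hochberg adjustment), and it was -0.06 without that library (adjusted p 0.871) and down to -0.31 without another. Removing the GC trend raised the level of PER1 in knockout replicate 1 from 4.97 to 5.48 CPM and left it the lowest of the 6. The SD of PER1 within groups was 0.231 in log2 CPM, the largest of the members.

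The cryptochromes, flavoprotein relatives of photolyases, are the main inhibitors of the CLOCK and BMAL1 heterodimer. CRY1 (ENSG00000008405.12) spans chr12:106991364-107093549 of hg38 on the reverse strand, and CRY2 (ENSG00000121671.12) chr11:45847118-45883248 on the forward strand. The CRY1 window held an E-prime box at -89, read as AACGTG on its own strand, inside an intron of a long noncoding RNA on the opposite strand. It is shown as the cryptochrome with the higher level, at chr12:107093608-107093663 (reverse), with the motif in capitals. For CRY2, the window of the second start held an E-prime box at -188 and a ROR element at -65, a motif found in 1.85% of all windows.
CRY1: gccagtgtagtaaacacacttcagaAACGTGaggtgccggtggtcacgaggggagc

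CRY1 was measured at 41.4, 44.2 and 52.1 CPM in the controls and at 53.2, 50.8 and 51.8 CPM in the libraries labelled BMAL1 knockout. The group labelled BMAL1 knockout was tight, and control replicate 3 alone reached into it. The log2 fold change of CRY1 was 0.18 (SE 0.0947, 95% interval -0.03 to 0.39; adjusted p 0.37 in edgeR with Benjamini-Hochberg adjustment), and it ranged from 0.11 without control replicate 1 (adjusted p 0.761) to 0.28 without control replicate 3 (adjusted p 0.133). With the GC trend removed, the levels of CRY1 were 43.1, 45.6 and 50.3 CPM in the controls and 49.6, 51.4 and 52.8 CPM in the other group, which still overlapped. CRY2 was measured at 10.9, 9.72 and 9.75 CPM in the controls and at 11.8, 9.99 and 11.7 CPM in the libraries labelled BMAL1 knockout. Here the groups overlapped at control replicate 1 and knockout replicate 2. CRY2 had a log2 fold change of 0.14 (SE 0.118, 95% interval -0.12 to 0.40), with an adjusted p of 0.594 from the same test, and 0.10 to 0.21 with 1 library left out.

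CSNK1E encodes casein kinase 1 epsilon, which phosphorylates PER proteins. The gene (ENSG00000213923.13) spans chr22:38290691-38318084 of hg38 on the reverse strand, and the window of its first start held an E-prime box at -80. Its level was 117, 118 and 98.1 CPM in the controls and 93.5, 111 and 104 CPM in the libraries labelled BMAL1 knockout. The lowest value of each group belonged to the library with the GC trend described above, control replicate 3 and knockout replicate 1, and the exons of CSNK1E are 58.5% GC. The log2 fold change of CSNK1E was -0.11 (SE 0.0937, 95% interval -0.32 to 0.09), with an adjusted p of 0.589 in edgeR's test with Benjamini-Hochberg adjustment. It ranged from -0.19 without control replicate 3 to -0.05 without knockout replicate 1. With the GC trend removed, CSNK1E was at 111, 112 and 105 CPM in the controls and 101, 107 and 101 CPM in the other group. A readthrough gene of the same strand, TPTEP2-CSNK1E, shares 1316 exon bases with CSNK1E and was counted at 20 to 51 reads, beside 2747 to 4611 for CSNK1E, so the split of reads between them is uncertain.

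CIART, also called CHRONO, binds BMAL1 and represses the heterodimer outside the PER and CRY complex, while BHLHE40 (DEC1) and BHLHE41 (DEC2) bind E-boxes themselves. CIART (ENSG00000159208.16) spans chr1:150282543-150287093 of hg38 and BHLHE40 (ENSG00000134107.5) chr3:4979437-4985323, both on the forward strand. BHLHE41 (ENSG00000123095.6) spans chr12:26120030-26125037 on the reverse strand. These are the members with the canonical E-box, next to PER1, and their stretches are printed to show its number and place. They lie at chr1:150282400-150282527 (forward), chr3:4979187-4979222 (forward) and chr12:26125055-26125110 (reverse). The CIART stretch holds 3 E-boxes, at -129, -71 and -57, outside any annotated gene. The E-box of BHLHE40 starts at -245, in an intron of the antisense gene BHLHE40-AS1, and that of BHLHE41 at -48, in an intron of SSPN on the opposite strand.
CIART: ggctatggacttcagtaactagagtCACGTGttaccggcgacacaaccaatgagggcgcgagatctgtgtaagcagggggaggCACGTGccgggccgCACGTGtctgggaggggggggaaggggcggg
BHLHE40: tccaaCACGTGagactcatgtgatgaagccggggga
BHLHE41: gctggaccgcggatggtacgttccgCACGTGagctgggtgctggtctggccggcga

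BHLHE41 was measured at 6.41, 5.68 and 6.82 CPM in the controls and at 4.76, 5.08 and 5.01 CPM in the libraries labelled BMAL1 knockout. Every library labelled BMAL1 knockout lay below every control. The log2 fold change of BHLHE41 was -0.35 (SE 0.137, 95% interval -0.65 to -0.05), a ratio of 0.784, with an unadjusted p of 0.0251 and an adjusted p of 0.216 in edgeR's test with Benjamini-Hochberg adjustment. Over the 16 alternatives its adjusted p lay between 0.128 and 0.431, and its log2 fold change was -0.42 to -0.29 with 1 library left out. BHLHE41 was counted at 152 to 222 reads a library, and SSPN, which shares 162 exon bases with it on the opposite strand, was counted at 158 to 324 reads with a log2 fold change of 0.12 (adjusted p 0.714). Strandedness of the counting is not given in the sources used here, so reads of the shared bases cannot be told apart.

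BHLHE40, its paralog, was measured at 29.7, 26.6 and 24.3 CPM in the controls and at 28.7, 31.3 and 27.1 CPM in the libraries labelled BMAL1 knockout. The groups overlapped, with the highest control between the values of the other group. Its log2 fold change was 0.11 (SE 0.1, 95% interval -0.11 to 0.33; adjusted p 0.624 in edgeR with Benjamini-Hochberg adjustment), and it ranged from 0.05 without control replicate 3 to 0.19 without control replicate 1. For CIART, the levels were 5.74, 5.35 and 4.46 CPM in the controls and 4.78, 5.24 and 4.63 CPM in the libraries labelled BMAL1 knockout. The control values enclosed all those of the other group. CIART had a log2 fold change of -0.09 (SE 0.15, 95% interval -0.42 to 0.24; adjusted p 0.822 by the same test), which ranged from -0.18 without control replicate 3 to -0.01 without control replicate 1 (adjusted p 0.991).

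Levels of different genes were compared as RPKM, which is CPM per kilobase of exon, averaged over the 6 libraries. In this order CSNK1E came first with a mean level of 15.1 RPKM, followed by CRY1 at 10.2, BHLHE40 at 7.95, PER3 at 2.80, CIART at 1.77, CRY2 at 1.72, BHLHE41 at 1.46, PER2 at 1.29 and PER1 at 1.01 RPKM. The ranges of neighbouring levels were separate in both groups for the first 4 steps, from CSNK1E down to CIART. Below that, CIART and CRY2 overlapped in both groups, CRY2 and BHLHE41 as well as PER2 and PER1 overlapped in the controls alone, and BHLHE41 and PER2 overlapped in the libraries labelled BMAL1 knockout alone. On the same RPKM scale, the mean level was 2.29 for BMAL1 and 9.76 for CLOCK.

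**Figure D2:**
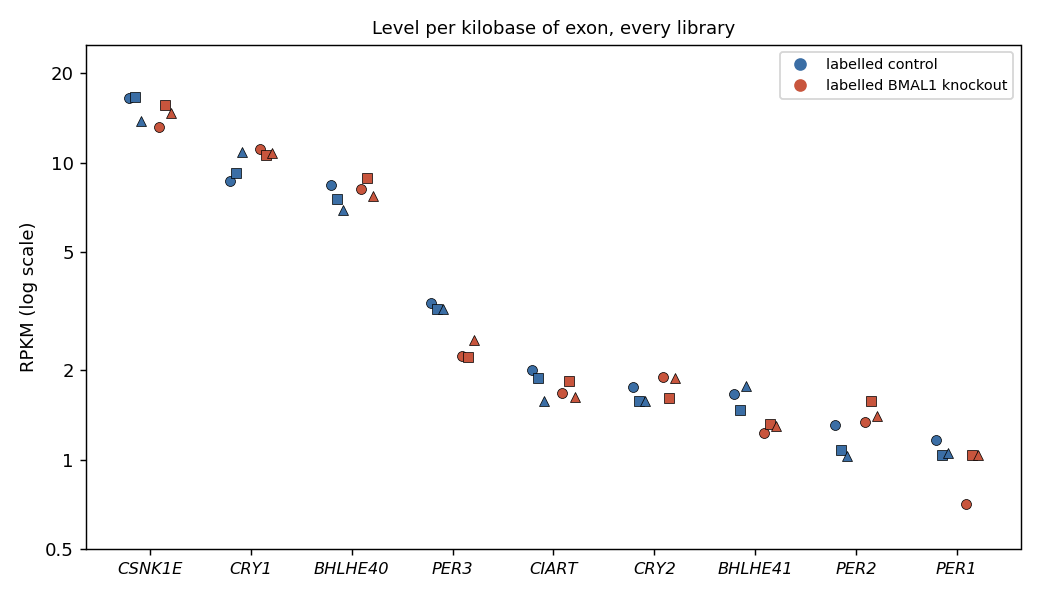
RPKM of each clock repressor on a log axis, in order of the mean over the 6 libraries, with controls in blue, libraries labelled BMAL1 knockout in red, and circles, squares and triangles for replicates 1, 2 and 3. CSNK1E, CRY1 and BHLHE40 lie well above the other members, and the 5 members from CIART to PER1 lie close together.

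The makeup of each family was then compared. PER3 was the most abundant period transcript per length in all 6 libraries, with 57.9, 60.2 and 60.8% of the summed PER RPKM in the controls and 52.2, 46.1 and 50.8% in the group labelled BMAL1 knockout. PER2 took 20.7% ± 1.53 (SD, n = 3) of the period RPKM in the controls and 30.6% ± 2.17 (SD, n = 3) in the other group. The share of PER1 was 19.7, 19.5 and 19.8% in the controls and 16.5, 21.5 and 21% in the other group. The summed level of the period genes was 5.49 ± 0.311 RPKM (SD, n = 3) in the controls and 4.70 ± 0.355 RPKM (SD, n = 3) in the libraries labelled BMAL1 knockout. CRY1 made up 85.3% ± 2.16 (SD, n = 3) of the cryptochrome RPKM in the controls and 85.8% ± 0.894 (SD, n = 3) in the other group. BHLHE40 made up 82.3% ± 2.31 (SD, n = 3) of the DEC RPKM in the controls and 86.5% ± 0.838 (SD, n = 3) in the libraries labelled BMAL1 knockout.

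Ratios of paralogs within a library depend little on how libraries are scaled. The log2 ratio of PER2 to PER3 (in CPM) was -1.56, -1.76 and -1.84 in the controls and -0.93, -0.70 and -1.04 in the group labelled BMAL1 knockout, whose 3 libraries lay above all controls. It differed by 0.83 between the group means, or 1.77-fold. The log2 ratio of PER1 to PER2 was -0.20, -0.08 and 0.01 in the controls and -0.93, -0.61 and -0.44 in the other group, a difference of -0.57, again with no overlap. BHLHE40 to BHLHE41 gave log2 ratios of 2.20, 2.21 and 1.82 in the controls and 2.58, 2.61 and 2.42 in the group labelled BMAL1 knockout, a difference of 0.46, also with no overlap. For each of these 3 pairs the exact permutation test (two-sided) gave p = 0.1, the smallest that 3 against 3 libraries allow, or 0.167 after Benjamini-Hochberg adjustment over the 5 pairs. The log2 ratio of PER1 to PER3 differed by 0.26 between group means (exact permutation p = 0.4), or 0.13 without knockout replicate 2 and 0.41 without knockout replicate 1, and that of CRY1 to CRY2 by 0.05 (exact permutation p = 1), and both overlapped. The separation of PER2 to PER3 follows from PER2 being higher and PER3 lower in every library labelled BMAL1 knockout, and how often ratios of other gene pairs separate these groups was not computed.

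**Figure D3:**
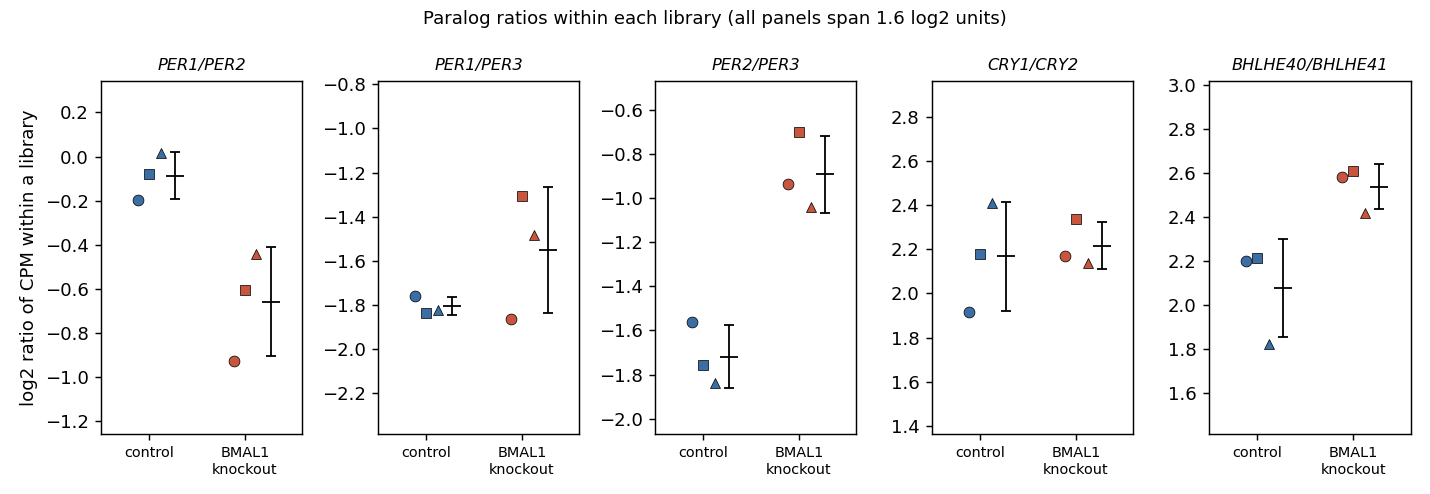
Log2 ratio of CPM of 5 paralog pairs within each library, with circles, squares and triangles for replicates 1, 2 and 3 and bars for the mean and SD (n = 3); each panel spans the same range of log2 units. The groups do not overlap for PER1/PER2, PER2/PER3 and BHLHE40/BHLHE41.

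The signs of the members did not change over the processing choices tried. Each of the 9 members kept the sign of its log2 fold change in 16 of 16 alternatives, PER3 was called lower in 12 of the 16, and no other member was called in any of them. The adjusted p of PER3 ranged from 0.000704 with DESeq2 to 0.0867 without knockout replicate 2 (Benjamini-Hochberg adjustment in each tool). The study's rule was a fold over 2 and a p under 0.01, read here as an unadjusted p. In edgeR, 0 members passed it, beside 0.956% of loci. The intervals of CRY1, CRY2, CIART, BHLHE40, CSNK1E and PER1 all held a log2 fold change of 0, and none of the 9 intervals reached a difference of 2-fold in either direction.

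**Figure D4:**
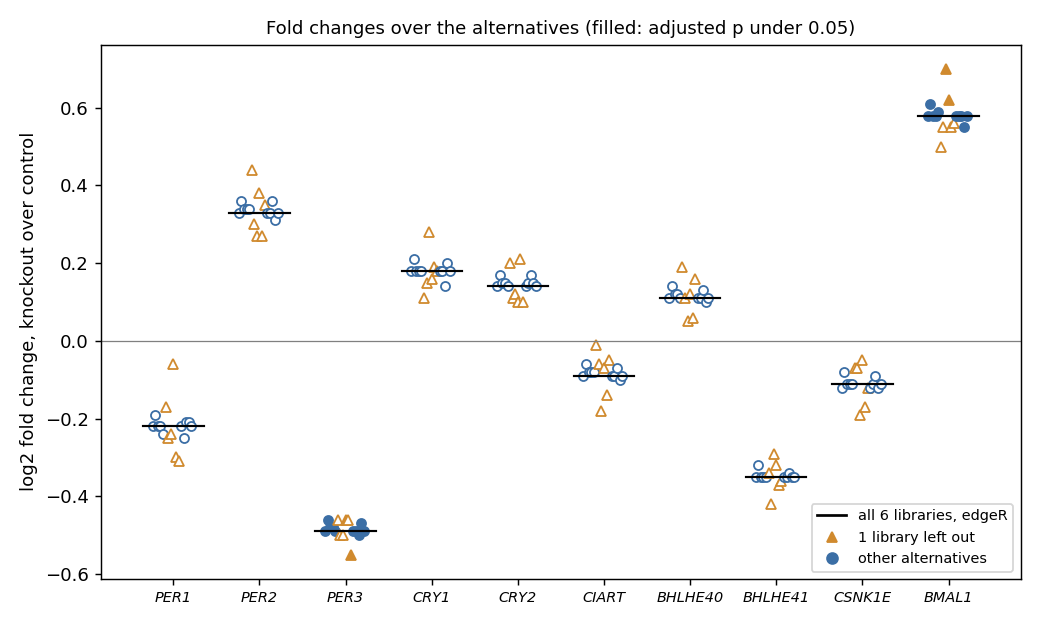
Log2 fold change of each member and of BMAL1 (libraries labelled BMAL1 knockout over controls) under each alternative, with triangles for fits that leave out 1 library, circles for the other alternatives and a line for the fit on all 6 libraries; filled symbols have an adjusted p under 0.05. Filled symbols occur for PER3 and BMAL1 alone, and the values of each gene stay on one side of 0.

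The rest of the loop gives the setting for these values. Counts of genes called by edgeR in this and the following lists stand beside 1.43% of all loci lower and 1.08% higher. By unadjusted p in edgeR, these shares were 7.78% and 9.08%. Counts by DESeq2 and limma-voom stand beside 4.47% and 1.72% of loci called in either direction. Among 4 genes of the activating limb, 1 was called higher, BMAL1 itself, and 0 lower by edgeR, and by an unadjusted p under 0.05 there were 1 lower and 1 higher. The lower gene was NPAS2, with a log2 fold change of -0.28 (adjusted p 0.214 in edgeR). It lay below all controls in every library labelled BMAL1 knockout. CLOCK had a log2 fold change of -0.12 (adjusted p 0.488 in edgeR). Of 3 tested nuclear receptors of the secondary loop, 2 were called lower. NR1D1, which encodes the heme-binding repressor REV-ERB alpha, was at 7.75, 7.11 and 6.86 CPM in the controls and 3.07, 3.24 and 2.84 CPM in the libraries labelled BMAL1 knockout, below all controls. Its log2 fold change of -1.25 (SE 0.143, adjusted p 0.00146 in edgeR with Benjamini-Hochberg adjustment) was larger in size than that of each of the 9 repressors, a difference between genes that was not tested. NR1D2, its paralog, was at 64.9, 61.8 and 77.8 CPM against 42, 37.5 and 39.4 CPM, with a log2 fold change of -0.78 (SE 0.0986, adjusted p 0.00233 by the same test). Among 4 genes of the D-box arm, 1 was called lower and 0 higher by edgeR, and by an unadjusted p under 0.05 there were 1 lower and 1 higher. The called gene, TEF, an activator at D-boxes, was at 11.6, 12.5 and 13.5 CPM in the controls and 8.85, 8.68 and 9 CPM in the other group (log2 fold change -0.51, SE 0.111, adjusted p 0.0368 in edgeR with Benjamini-Hochberg adjustment). NFIL3, the repressor at the same element, had a log2 fold change of 0.28 and an adjusted p of 0.172. Set beside these values, PER3 differed about as much as TEF. DESeq2 and limma-voom called the same genes of these lists as edgeR.

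**Figure D5:**
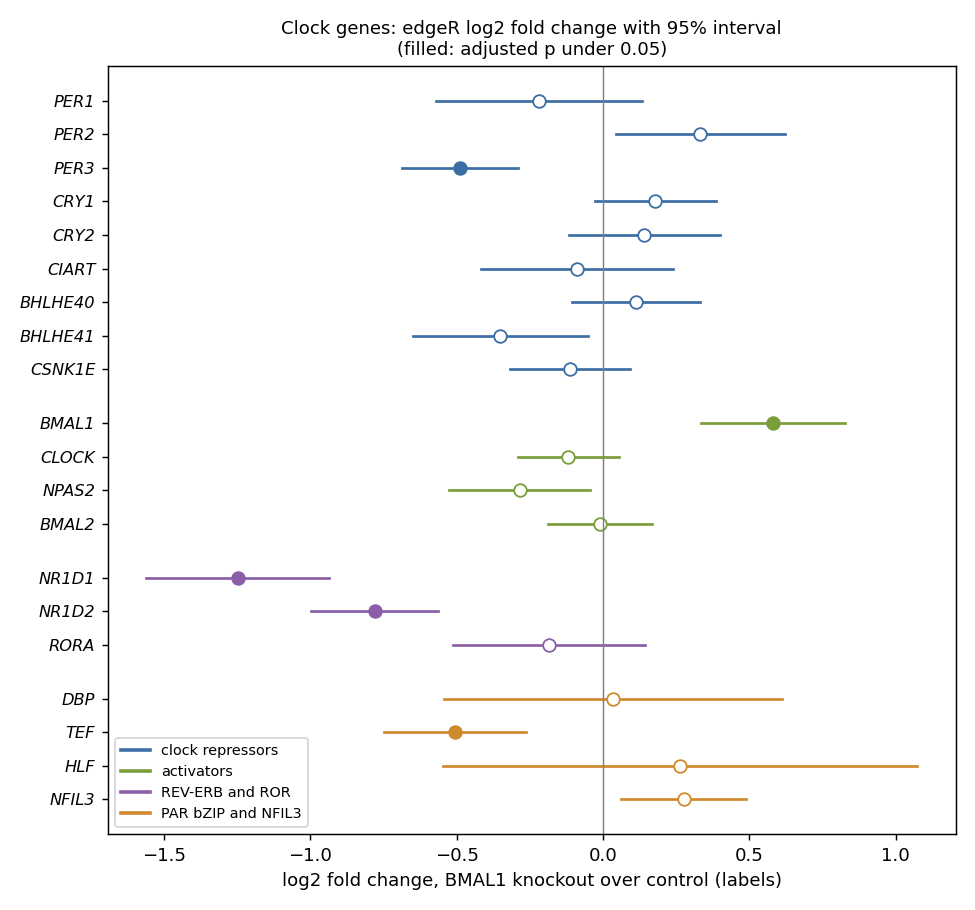
Log2 fold change (libraries labelled BMAL1 knockout over controls) with its 95% interval for the clock repressors, activators, REV-ERB and ROR receptors, and D-box factors, from edgeR with all 6 libraries; filled circles have an adjusted p under 0.05. PER3 is filled among the repressors, beside BMAL1, NR1D1, NR1D2 and TEF.

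The proteins that modify or accompany PER and CRY were taken from lists written by hand. Of 24 tested kinases, phosphatases and ubiquitin ligase or protease components that act on PER or CRY, edgeR called 0 lower and 0 higher, as did DESeq2 and limma-voom. At an unadjusted p under 0.05 edgeR counted 2 lower and 0 higher, and the median log2 fold change was -0.04. CSNK1D, the paralog of CSNK1E, had a log2 fold change of -0.14 (adjusted p 0.448), and CUL4A, which had the smallest p of the list, -0.19 (adjusted p 0.197 in edgeR with Benjamini-Hochberg adjustment). Of 15 partners of the nuclear PER complex, 0 were called in either direction by edgeR, DESeq2 or limma-voom, and 0 had an unadjusted p under 0.05 in edgeR. Groups without overlap occurred for 4 of these partners and 5 of the modifiers, all lower, beside 11.5% of loci lower and 11.8% higher. The median log2 fold change of the partners was -0.07, with 12 negative and 3 positive, where all loci tested were 7098 negative and 7762 positive, and DHX9 had the smallest p (log2 fold change -0.16, adjusted p 0.324). Regardless of sign, the median log2 fold change of these partners and modifiers was 0.07 in both lists, beside 0.18 for the 9 repressors and 0.12 for all loci. Most partners and modifiers had more reads than most repressors, and the sizes were not compared at matched levels.

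Signals that are known to induce PER1 and PER2 were read through other genes that respond to them. Of 9 genes that answer to cAMP and CREB, 0 were called by edgeR and by limma-voom, and DESeq2 called 2 higher, EGR1 and NR4A1. By an unadjusted p under 0.05 in edgeR there were 1 lower and 2 higher. The median of this list was a log2 fold change of 0.15, and NR4A1 had its smallest p, at 16.8, 13.7 and 13.1 CPM in the controls and 16.7, 25.4 and 25.1 CPM in the libraries labelled BMAL1 knockout (log2 fold change 0.62, adjusted p 0.0649). Of 4 tested glucocorticoid-responsive genes, edgeR, DESeq2 and limma-voom called 0. By an unadjusted p under 0.05 in edgeR there were 1 lower and 1 higher, and SGK1 had the smallest p (log2 fold change -0.28, adjusted p 0.11). The higher gene was TSC22D3 (log2 fold change 0.47, adjusted p 0.161 in edgeR). The median log2 fold change of these 4 genes was 0.11, with 1 negative, SGK1, and 3 positive. Of 9 tested hypoxia-responsive genes, 1 was called lower and 0 higher by edgeR and limma-voom, and DESeq2 called 2 lower and 0 higher, ADM being the other. By an unadjusted p under 0.05 in edgeR there were 3 lower and 0 higher. The median log2 fold change of the hypoxia list was -0.06, with 5 negative and 4 positive. The gene called by all 3 tools was SLC2A1, the glucose transporter GLUT1, at 136, 126 and 131 CPM in the controls and 84.3, 86.1 and 91.8 CPM in the other group (log2 fold change -0.58, adjusted p 0.00233). PER1, which responds to the first pair of these signals, overlapped between the groups, as given above. PER2 lay above all controls in every library labelled BMAL1 knockout, with a log2 fold change of 0.33 (adjusted p 0.224 in edgeR). Whether these signals set the level of either gene was not tested.

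The genes that surround each member on its chromosome were compared with it. The median log2 fold change of the 40 nearest tested genes (25 for BHLHE40) lay between -0.04 and 0.06 for every member, and it was -0.02 around PER3, -0.04 around PER2 and 0.03 around BHLHE41. Of the 36 tested genes closest to the members, 2 on either side of each, edgeR, DESeq2 and limma-voom called 0, and 6 of them (16.7%) had an unadjusted p under 0.05 in edgeR, beside 16.9% of all loci. UTS2, which shares 868 exon bases with PER3 on the opposite strand, had 0 reads in all 6 libraries. Long noncoding RNAs on the opposite strand share 482 exon bases with PER3 (ENSG00000236266), 188 with PER2 (ENSG00000225057) and 94 with CRY1 (ENSG00000257548), and they were not analysed here. PER1 shares 30 exon bases with a readthrough gene that was counted at 4 to 11 reads. BHLHE40 shares 451 exon bases with BHLHE40-AS1 on the opposite strand, which was not analysed here.

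Genes with the most similar pattern over the 6 libraries were found for the 3 members with the smallest p, by the root-mean-square difference of centred log2 CPM among 12495 named genes of at least 1 CPM. For PER3 they were MARCHF4 at a root-mean-square difference of 0.0343, HERPUD1 at 0.0376 and IGFN1 at 0.0457. For BHLHE41 they were LHX4 at 0.0376, F2RL2 at 0.0436 and SLC9A2 at 0.0440. For PER2 they were MINDY1 at 0.0224, IRF5 at 0.0422 and TTC28 at 0.0531. Their directions follow from this choice, and nothing is read from them.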

How the data were processed

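RNA-seq of 6 libraries was analysed. The authors deposited raw counts per gene, taken from reads with a unique place on hg38 after a filter on adapters and base quality. The methods name fastp 0.20.1 for mapping and HISAT2 2.0.4 for counting; the annotation and strandedness are not given in the sources used here. Columns were matched to samples by name. Names of 20044 loci matched GENCODE 44, which gave exon lengths and GC, and 2310 loci are assembled from reads. In R 4.3.3, edgeR 4.0.16 (TMM, default low-count filter, robust quasi-likelihood fit, two-sided) tested 14860 loci, 1264 of them assembled, with Benjamini-Hochberg adjustment over all. A call was an adjusted p under 0.05. Ratios used log2 CPM with a prior count of 2. The common biological coefficient of variation was 0.108, and the members had 125 to 4611 reads a library, so counting error adds most for the rarest. Alternatives were DESeq2 1.42.0, limma-voom (limma 3.58.1), other scaling and filters, a replicate block, each library left out, removal of the exon GC trend (known for 91.5% of loci), thinning, and no assembled loci. Of these steps, edgeR and the GC removal were tested on simulated data, and DESeq2 and limma-voom were not. The simulated GC trend lay in every library of the group labelled BMAL1 knockout and in no control, unlike the trend in these data. The members and lists were chosen with earlier results of these data known. Named genes are the members, BMAL1, up to 6 called genes of each list or the gene of smallest p where none was called, 3 genes of most similar pattern, and overlapping or neighbouring loci. CLOCK, NPAS2, NFIL3, CSNK1D, EGR1, ADM, TSC22D3 and the uncalled marker genes fall outside this rule and were chosen after their values were seen. FBXL21P was not analysed here.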

Additional observations from a re-analysis of the deposited data

How the results depend on the processing

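Over the 16 alternatives, every member kept its sign and the count of members called higher by edgeR stayed at 0, as it did with DESeq2 and limma-voom. At an unadjusted p under 0.05, 1 member was higher in the fit on all 6 libraries (PER2), 2 with scaling by library size only (PER2 and CRY1), 0 without control replicate 2 or knockout replicate 2, and 1 otherwise, which was CRY1 without control replicate 3. The count called lower was 1 in all except 4 of the fits that left out 1 library (range 0 to 1; without control replicate 1, 2 or 3 or knockout replicate 2) and the study's rule (0). Against 212 genes called lower and 161 higher, the counts were 67 to 340 lower and 46 to 293 higher with 1 library left out: 83 and 83, 67 and 46, 81 and 60 without control replicates 1, 2 and 3, and 340 and 293, 96 and 66, 147 and 102 without knockout replicates 1, 2 and 3. DESeq2 gave 379 and 256, limma-voom 153 and 102, removal of the exon GC trend 568 and 484, the study's rule 48 and 94, and scaling by library size only 155 and 185. The difference between group means in the log2 ratio of CRY1 to CRY2 changed sign, from 0.05 to -0.01 with the GC trend removed. With 1 library left out it lay between -0.08 and 0.17, being negative without control replicate 1 and without knockout replicate 2. The cause was not tested. For each of the other 4 pairs, the difference between group means kept its sign. Replicate numbers did not pair the libraries, since deviations of same-numbered libraries correlated at -0.09, -0.052 and -0.005 and no control library correlated best with its own number; a replicate block gave 145 lower and 132 higher, with PER3 still called (adjusted p 0.0402 by edgeR). Thinning to the smallest total left PER3 called, and depth limits CIART and BHLHE41 most, at 125 to 222 reads a library.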

Other observations

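Among the marker genes, edgeR and limma-voom called KRT18 and PTPRC, and DESeq2 called these and KRT8 (log2 fold change -0.28, adjusted p 0.0507 in edgeR). KRT18, a keratin of simple epithelia, had a log2 fold change of -0.50 (adjusted p 0.00583 in edgeR). It lay lower in every library labelled BMAL1 knockout than in any control. KRT19 and EPCAM of the same list had positive values of 0.23 and 1.57 (adjusted p 0.426 and 0.394 in edgeR), EPCAM on 0 to 17 reads a library. PTPRC, which encodes the leukocyte phosphatase CD45, averaged 6.40 ± 0.145 CPM (SD, n = 3) in the controls and 2.36 ± 0.341 CPM (SD, n = 3) in the group labelled BMAL1 knockout. Its log2 fold change was -1.43, and its adjusted p was 0.00127 in edgeR with Benjamini-Hochberg adjustment. These were taken from lists of cell type markers, and what sets their levels was not tested.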
